A study of Homo sapiens with 9 samples.

Results

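The TCF/LEF transcription factors (TCF7, TCF7L1, TCF7L2 and LEF1), β-catenin (CTNNB1) and the proteins of the complex that destroys it (APC, AXIN1, AXIN2, GSK3B and CSNK1A1) were examined in HCT116 colon cancer cells that express an isoform of tazarotene-induced gene 1 (TIG1, also named RARRES1). The members were all probe sets annotated to these 10 genes, of 19776 genes named on the array, and were 43 of its 54675 probe sets. The array annotation gave 42 of them, and the probe set 205255_x_at was taken as TCF7 from the study's own list of changed genes. Every TCF7 value rests on that probe set alone, and probe sets left unnamed by the annotation were not used. TCF7 had been picked by the study on these same arrays, so its direction on them is not independent evidence. RNA from 9 cultures was hybridised to Affymetrix HG-U133 Plus 2.0 arrays, with 3 arrays for each of the control, TIG1A and TIG1B stable lines. Every line carries a hormone-responsive regulator plasmid together with an inducible plasmid, which was empty in control cells and coded for V5-tagged TIG1A or TIG1B in the others, and every culture received 5 nM mifepristone (MFP), the inducer, for 24 h. Each line is 1 stable clone, so the induced isoform and other differences between clones cannot be told apart. The 3 arrays of a group are separate samples of that clone, and p-values measure the spread between them alone.

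Without a Wnt signal, β-catenin is held on a scaffold of APC and axin, phosphorylated by the kinases CK1α (CSNK1A1) and GSK3β, ubiquitinated and degraded. When degradation fails, β-catenin enters the nucleus and converts TCF/LEF factors, which otherwise sit on their targets with Groucho/TLE corepressors, into activators of transcription. AXIN2 and, in many cells, TCF7 and LEF1 are themselves transcribed from this switch, so the pathway feeds back on its own members. Colon cancers usually break the complex through APC. HCT116 cells have intact APC and carry a β-catenin mutation that escapes the kinases.

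TCF/LEF proteins share an HMG box that recognises the letters CTTTGA or CTTTGT. Both were searched on both strands in windows from 250 bases before to 50 bases after annotated gene starts, taken from RefSeq on GRCh38. A match was found in 3 of 14 windows of the 9 members that had one, and in 26.2% of all 35116 windows. No window was listed for AXIN2, so it was not searched. The windows of TCF7 and TCF7L1, the TCF/LEF genes with the clearest difference between TIG1A and control cells, are shown in lower case with matches in capitals. The downstream window of TCF7 holds 2 matches, both read as ACAAAG on the strand printed, and the other windows shown hold none.

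TCF7 upstream start, chr5:134115363-134115662, plus strand: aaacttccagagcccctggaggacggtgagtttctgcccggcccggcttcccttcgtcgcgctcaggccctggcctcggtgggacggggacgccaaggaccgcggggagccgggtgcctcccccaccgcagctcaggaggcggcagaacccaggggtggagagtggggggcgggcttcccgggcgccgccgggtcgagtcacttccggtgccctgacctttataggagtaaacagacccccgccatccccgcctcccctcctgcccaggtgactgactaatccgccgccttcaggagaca
TCF7 downstream start, chr5:134123368-134123667, plus strand: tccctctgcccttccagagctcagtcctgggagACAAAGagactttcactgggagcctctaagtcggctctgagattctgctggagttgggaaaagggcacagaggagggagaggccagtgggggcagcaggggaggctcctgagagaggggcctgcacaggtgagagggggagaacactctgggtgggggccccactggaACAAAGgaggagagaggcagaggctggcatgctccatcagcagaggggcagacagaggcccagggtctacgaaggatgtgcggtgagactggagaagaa
TCF7L1, chr2:85133142-85133441, plus strand: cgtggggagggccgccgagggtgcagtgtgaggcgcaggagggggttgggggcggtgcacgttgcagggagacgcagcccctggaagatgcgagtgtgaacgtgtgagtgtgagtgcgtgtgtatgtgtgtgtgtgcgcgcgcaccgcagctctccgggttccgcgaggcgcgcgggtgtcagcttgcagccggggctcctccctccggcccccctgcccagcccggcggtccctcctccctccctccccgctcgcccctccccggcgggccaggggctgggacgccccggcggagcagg

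The remaining matches lay in 1 of 3 windows of TCF7L2 and in 1 of 2 windows of CSNK1A1. A match of 6 letters is a description of these windows and not a site of binding.

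The authors deposited 1 linear signal intensity for each probe set and array, and differences were taken between log2 intensities. Only probe sets at or above the array median (59.9 to 73.9) on 2 or more of the 3 arrays in some group were kept for tests. Of the 43 member probe sets 35 passed, and they cover 9 of the 10 genes, because LEF1 was below the array median on every array. As a check of the labels, RARRES1 (206392_s_at) was at least 876-fold higher in TIG1A and at least 547-fold higher in TIG1B cells than in control cells, where all arrays lay below their medians. The epithelial identity of the cells was checked on 10 epithelial and colon cancer cell markers, with summed intensities of 110640 to 142110. Of these, 7 were above the median on all arrays of every group. The exceptions were CDX2, below the median on 1 array, and CEACAM5 and VIL1, each below it on 6 arrays. All 7 T cell markers together summed to 184 to 384 and all 6 fibroblast markers to 90.2 to 365. None of either list was above the median on all 9 arrays, and THY1, a fibroblast marker, was below it on only 3 of them. Among the epithelial markers, CDH1, whose product E-cadherin binds β-catenin at the membrane, rose by 0.59 on the log2 scale in TIG1A cells (limma, adjusted p = 0.0481), and KRT19 fell by 0.66 in both lines (adjusted p = 0.0267 in TIG1A and 0.0435 in TIG1B). The CDH1 call was lost after quantile normalization (adjusted p = 0.0573) and both KRT19 calls after centring on array medians (0.0760 and 0.112), and leaving out any of 7 or 8 of the 9 arrays ended each of them.

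In TIG1A cells AXIN2 and APC were higher than in control cells on 1 probe set each, and no member was called lower, although a filter at the 75th percentile called TCF7L2 212759_s_at and GSK3B 209945_s_at lower (adjusted p = 0.0465 and 0.0486). These were 2 of the 35 kept member probe sets, while 6.06% of all kept probe sets were called in this comparison, 2.86% higher and 3.2% lower (858 and 960 probe sets, which became 1274 and 357 when arrays were centred on their medians). In RNA from whole cultures, a change in every cell and a change in the share of cells that express a gene cannot be told apart. Neither TIG1B against control (background 1.78%) nor TIG1A against TIG1B (background 0.417%) had a member call by limma, with 4 and 5 member probe sets at an unadjusted p under 0.05, a level that 18.5% and 13.3% of all kept probe sets reached. The share of members called is therefore near the background in each comparison. By the limma F test for any difference among the groups, AXIN2 (222696_at) was the only member probe set called (adjusted p = 0.0386; background 4.07%).

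**Figure D1:**
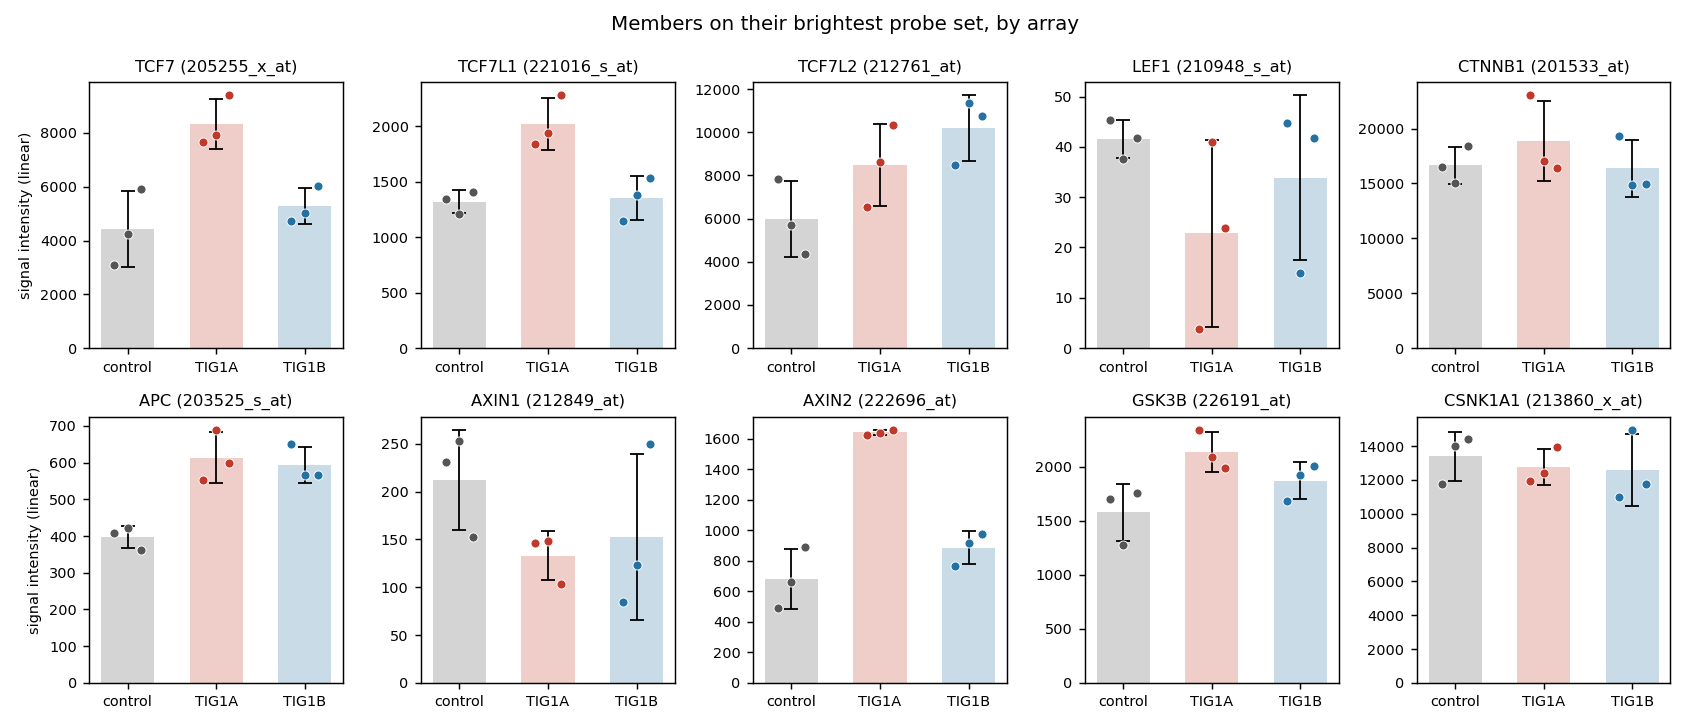
Signal intensity (linear axis from 0) of each member on the probe set with the highest mean log2 intensity. Points are the 3 arrays of a group, bars are means and error bars are SD. The 3 TIG1A arrays lie above all control arrays for TCF7, TCF7L1, APC, AXIN2 and GSK3B and below them for AXIN1. Of all kept probe sets, 13.9% were higher and 16.9% lower in this way. GSK3B 209945_s_at, not shown, lies below control in TIG1A. LEF1 stays under 50 on the probe set shown.

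TCF7, a TCF/LEF factor best known from T cells and also made in intestinal epithelium (GRCh38 chr5:134108218-134148210), was bright on all 9 arrays. Its intensities were 3097, 4245 and 5900 in control cells, 7674, 7922 and 9412 in TIG1A cells and 4741, 5041 and 6028 in TIG1B cells. The TIG1A arrays were all above those of both other lines, whereas TIG1B and control overlapped. The difference between TIG1A and TIG1B cells was 0.66 on the log2 scale (95% interval 0.10 to 1.22; limma, adjusted p = 0.302). Against control, the log2 difference was 0.96 in TIG1A cells (interval 0.40 to 1.52; adjusted p = 0.0582) and 0.30 in TIG1B cells (interval -0.26 to 0.86; adjusted p = 0.549). By real-time RT-PCR, the study reported TCF7 mRNA raised in both TIG1 lines, measured against vehicle-treated control cells. Its Western blots showed no change in TCF7 protein in either line.

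TCF7L1 (chr2:85133392-85310387) acts mainly as a repressor of Wnt targets and is known from stem cells. Its single probe set read 1341, 1204 and 1406 in control, 1841, 1936 and 2280 in TIG1A and 1141, 1383 and 1529 in TIG1B cells. The order was that of TCF7, with TIG1A above both other lines and no overlap. The log2 difference to control was 0.61 in TIG1A cells (SE 0.16; limma, adjusted p = 0.0649) and 0.03 in TIG1B cells (interval -0.34 to 0.40). TIG1A exceeded TIG1B by 0.58 on the log2 scale (adjusted p = 0.197).

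TCF7L2, the main TCF of intestinal epithelium (chr10:112950247-113167678), was measured by 7 kept probe sets that did not move together. The probe set 212761_at read 7841, 5695 and 4367 in control, 6524, 8629 and 10318 in TIG1A and 8473, 11374 and 10744 in TIG1B cells. On it only TIG1B cells were free of overlap with control, at a log2 difference of 0.80 (SE 0.26; limma, adjusted p = 0.165). In contrast, 212759_s_at read 659, 492 and 523 in control and 466, 309 and 370 in TIG1A cells, lower without overlap by a log2 difference of -0.56 (adjusted p = 0.135). TIG1B cells read 469, 403 and 505 there and overlapped with control.

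A further pattern came from 236094_at, a dim probe set that was below the median on all control arrays. It read 12.7, 8.49 and 32.7 in control, 46.4, 63.2 and 111 in TIG1A and 19.0, 48.9 and 107 in TIG1B cells, and with most of these values under the array medians its folds carry no meaning. The other 4 probe sets (212762_s_at, 216035_x_at, 216037_x_at and 216511_s_at) had log2 differences from -0.59 to 0.25 in TIG1A and from -0.23 to 0.42 in TIG1B cells, each with overlap with control. Over the 9 arrays, Pearson correlations between pairs of TCF7L2 probe sets ran from -0.572 to 0.927, with a median of 0.273 over 21 pairs. TCF7L2 is spliced into many isoforms, and the files do not say which of them a probe set detects.

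**Figure D2:**
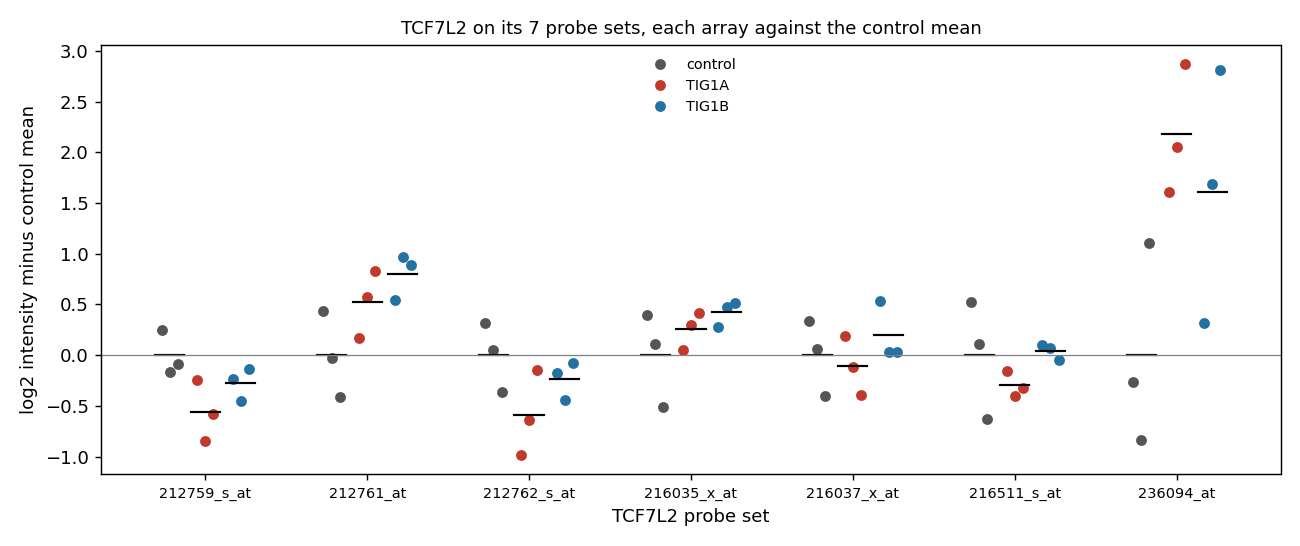
Log2 intensity of each array minus the mean of the control arrays, for the 7 TCF7L2 probe sets. Points are arrays and short lines are group means. The probe set 212761_at lies above control in the TIG1B arrays and 212759_s_at lies below it in the TIG1A arrays, while the dim 236094_at spreads widest.

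LEF1 (chr4:108047548-108168932), the factor of lymphocytes that many colon cancers also switch on, stayed in the range of unexpressed genes. Its 27 values on 3 probe sets lay between 2.88 and 61.7, all under the medians of their arrays, and none of the probe sets was kept or tested. On 210948_s_at, the brightest, control read 45.3, 37.7 and 41.8, TIG1A 3.76, 40.9 and 23.9 and TIG1B 44.8, 15.0 and 41.8. No order among the groups can be read from such values.

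CTNNB1, which codes for β-catenin (chr3:41199505-41240443), was bright and overlapped among the lines on its main probe set. On 201533_at, control read 16492, 15072 and 18409, TIG1A 23065, 17062 and 16444 and TIG1B 19365, 14858 and 14911. The log2 difference to control was 0.17 in TIG1A (interval -0.27 to 0.60; limma, adjusted p = 0.618) and -0.03 in TIG1B cells (interval -0.47 to 0.41), the latter turning to 0.11 when arrays were centred on their medians. A rise of more than 0.60 or a fall of more than 0.27 in TIG1A cells thus lies outside the interval at the deposited scaling. Centring on array medians moved the TIG1A difference itself to 0.33. The probe set 1554411_at gave log2 differences of -0.20 and -0.28 with overlap in both lines.

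The dim CTNNB1 probe set 223679_at went another way. All control arrays were below their medians at 60.0, 45.3 and 63.2, while TIG1A cells read 79.9, 121 and 224 and TIG1B cells 49.9, 105 and 127. TIG1A lay above control without overlap, at least 1.81-fold against the medians of the control arrays (limma, adjusted p = 0.146), and TIG1B overlapped with control (log2 difference 0.65, interval -0.39 to 1.70; adjusted p = 0.482). mRNA levels say nothing of the stability of the β-catenin protein, which is where the destruction complex acts.

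AXIN2 (chr17:65528563-65561648), the scaffold that β-catenin itself induces and that is widely read as a gauge of the pathway, was the member with the largest called difference. On 222696_at, control cells read 494, 660 and 889, TIG1A cells 1626, 1638 and 1659 and TIG1B cells 764, 917 and 977. The TIG1A arrays lay close together and far above both other lines, and TIG1B overlapped with control. The log2 difference between TIG1A and control was 1.31 (SE 0.22, interval 0.80 to 1.82; limma, adjusted p = 0.0210), a 2.48-fold rise. Leaving out Control replicate 2 or any of the 3 TIG1A arrays ended the call (adjusted p between 0.0543 and 0.0747), while the difference itself stayed between 1.30 and 1.32 in those fits. In TIG1B cells the difference was 0.41 (interval -0.09 to 0.92; adjusted p = 0.360).

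The other 3 probe sets of AXIN2 gave values in the same direction in TIG1A cells. On 224176_s_at, control read 230, 200 and 294, TIG1A 525, 411 and 562 and TIG1B 119, 209 and 236, a log2 difference of 1.06 between TIG1A and control (limma, adjusted p = 0.0701). On 224498_x_at, control read 87.7, 116 and 169, TIG1A 224, 223 and 210 and TIG1B 102, 114 and 209, a log2 difference of 0.87 (adjusted p = 0.143). The probe set 222695_s_at gave 0.70 with overlap. Correlations among the 4 probe sets over the 9 arrays were 0.624 to 0.888, the narrowest range among the members with several probe sets.

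AXIN2 was also compared between the TIG1 lines. TIG1A arrays lay above TIG1B arrays without overlap on all 4 AXIN2 probe sets, with log2 differences of 0.70 to 1.46. The gap was small on 224498_x_at (210 against 209). By limma the adjusted p-values were 0.101 on 224176_s_at and 0.156 on 222696_at, and 0.382 and 0.402 on the dimmer ones, so the difference between lines did not pass the threshold. Of all kept probe sets, 12% were higher in TIG1A than in TIG1B without overlap. Among the 35 member probe sets 7 were, namely 4 of AXIN2 and 1 each of TCF7, TCF7L1 and APC, and 1 of TCF7L2 was lower, as were 12.1% of all.

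**Figure D3:**
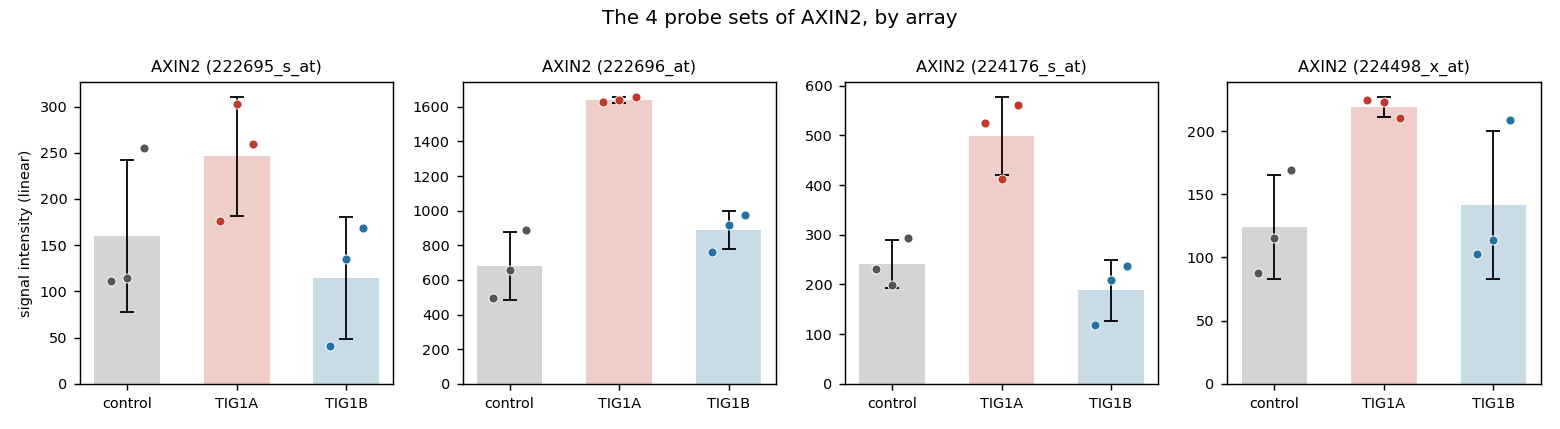
Signal intensity (linear axis from 0) of the 4 AXIN2 probe sets by array. Points are arrays, bars are means and error bars are SD. On each probe set the 3 TIG1A arrays lie above the 3 TIG1B arrays.

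AXIN1, the constitutive counterpart of AXIN2 (chr16:287440-352723), ran the other way in value but did not pass the test. Its single probe set read 231, 253 and 153 in control, 146, 149 and 104 in TIG1A and 84.6, 123 and 250 in TIG1B cells. The TIG1A values lay under all control values, and the TIG1B values spanned both groups. The log2 differences were -0.66 (interval -1.58 to 0.26) and -0.59 (interval -1.52 to 0.33).

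APC (chr5:112707498-112846239), the tumour suppressor scaffold that binds β-catenin, rose on 1 of 4 kept probe sets. On 203525_s_at, control read 407, 421 and 363, TIG1A 552, 690 and 599 and TIG1B 651, 565 and 566, and both lines lay above control without overlap. The log2 difference was 0.62 in TIG1A (SE 0.14; limma, adjusted p = 0.0471) and 0.58 in TIG1B cells (SE 0.14; adjusted p = 0.0906). The TIG1A call rests on all 9 arrays, since leaving out any of them ended it (adjusted p 0.0532 to 0.141). On 203526_s_at, by contrast, control read 295, 293 and 253, TIG1A 372, 272 and 247 and TIG1B 192, 215 and 187, so that TIG1B was lower than control without overlap (log2 difference -0.50; adjusted p = 0.200). The dimmer 203527_s_at and 216933_x_at gave -0.32 and 0.28 in TIG1A cells, with overlap, and pairs of APC probe sets correlated between -0.430 and 0.411 over the arrays.

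GSK3B, the kinase that marks β-catenin for ubiquitination (chr3:119821321-120094447), also differed by probe set. On 209945_s_at, control read 910, 823 and 781, TIG1A 726, 621 and 548 and TIG1B 572, 598 and 561, with both lines under control and no overlap. The log2 differences were -0.41 (limma, adjusted p = 0.131) and -0.54 (adjusted p = 0.113). On 226191_at, control read 1701, 1274 and 1757, TIG1A 2343, 2089 and 1986 and TIG1B 1683, 1927 and 2005. There TIG1A lay above control without overlap (log2 difference 0.45; adjusted p = 0.148) and TIG1B overlapped with it. The remaining kept probe sets, 226183_at and 242336_at, had differences of 0.12 and 0.04 in TIG1A cells.

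CSNK1A1, which codes for the priming kinase CK1α (chr5:149492982-149551439), had no call in either line. Its brightest probe set, 213860_x_at, read 11756, 13999 and 14425 in control, 11952, 12388 and 13959 in TIG1A and 10988, 14971 and 11791 in TIG1B cells. The differences were -0.07 (interval -0.45 to 0.32) and -0.10 (interval -0.48 to 0.29), and both turned positive, to 0.10 and 0.05, after centring on array medians. Over its 10 kept probe sets the log2 differences ran from -0.19 to 0.45 in TIG1A and from -0.24 to 0.48 in TIG1B cells. Of these, 208865_at (4780, 4673 and 4078 in control, 5339, 6026 and 5353 in TIG1B) was the only one in which a line did not overlap with control.

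**Figure D4:**
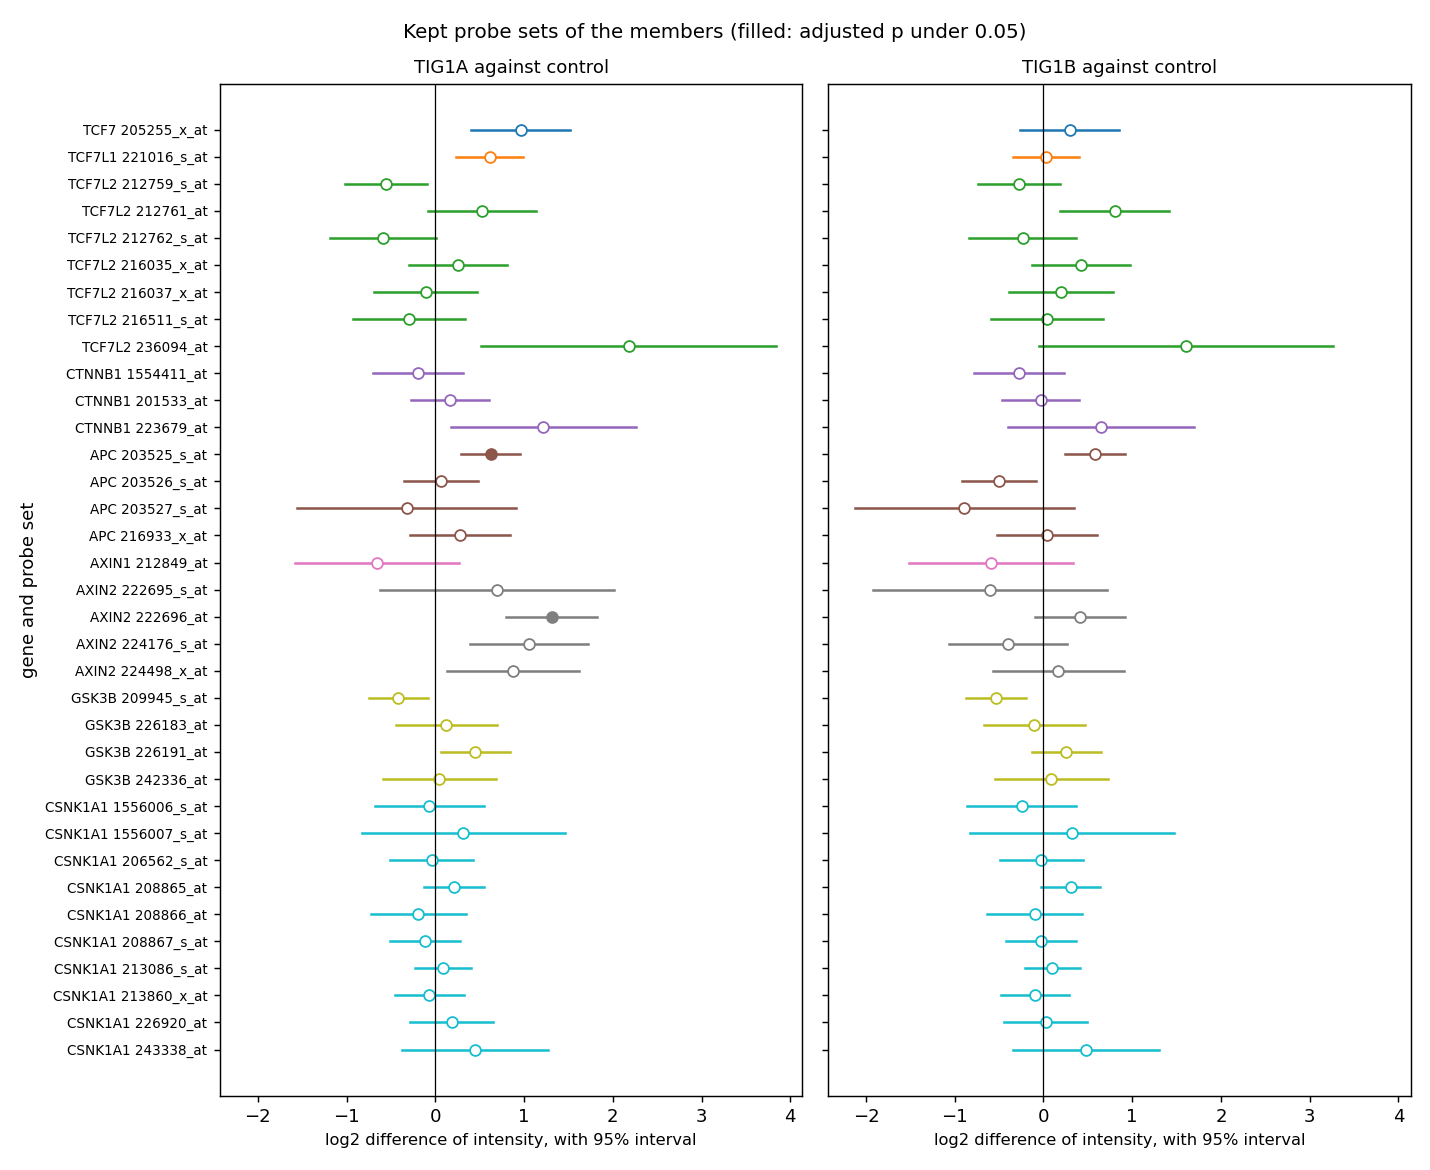
Log2 difference of intensity between each TIG1 line and control cells for the 35 kept member probe sets, coloured by gene. Points are estimates, lines are 95% intervals from the limma fit and filled points have an adjusted p under 0.05. Filled points are APC 203525_s_at and AXIN2 222696_at in TIG1A, and the probe sets of TCF7L2, APC and GSK3B lie on both sides of 0.

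Across the 35 kept probe sets, 9 were higher and 3 lower in TIG1A than in control cells without overlap between the arrays. Of all kept probe sets, 13.9% and 16.9% were. In TIG1B cells 3 were higher and 2 lower, against 10.8% and 14% of all. The 9 in TIG1A cells include TCF7L2 236094_at, which passed the filter through TIG1A arrays alone. They also include CTNNB1 223679_at, which passed through the TIG1 lines alone. Being high there let these dim probe sets into the count, so they add no evidence to it. Several others of the 9 are of AXIN2. The median log2 difference of the members was 0.17 in TIG1A and 0.03 in TIG1B cells, beside -0.04 and -0.03 over all kept probe sets. Centring on array medians moved the median of all probe sets to 0.12 in both comparisons and those of the members to 0.33 and 0.18, and it turned the sign of 5 and 6 member probe sets. The array medians were 68.6 to 73.9 in control and 59.9 to 67.2 in TIG1A cells, and their part in these values was not tested.

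AXIN2 and TCF7 followed each other closely on their brightest probe sets. Over the 9 arrays the log2 intensities of these probe sets correlated with r = 0.974. This placed AXIN2 at rank 3 of 13407 genes for TCF7 and TCF7 at rank 2 for AXIN2. The other AXIN2 probe sets were not ranked. In TIG1B cells the log2 difference to control was 0.30 for TCF7. For AXIN2 it was 0.41 on 222696_at, the brightest, and 0.17 on 224498_x_at. It was -0.40 on 224176_s_at and -0.605 on 222695_s_at, opposite in sign to TCF7. The genes nearest to TCF7 besides AXIN2 were ZNF587 (r = 0.978), CREB1 (0.977), DYNC2I1 (0.970) and ZNF518B (0.967). Nearest to AXIN2 besides TCF7 were CRELD2 (0.978), MTCL1 (0.974), DNAL1 (0.974) and EXT1 (0.967). These values hold the differences among 3 lines as well as those within them, and the arrays of a line are not independent of each other in this respect.

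The wider pathway was described on gene lists of textbook members, of which the target list holds TCF7, chosen by the study on these arrays. Among nuclear cofactors and corepressors, 54 kept probe sets of 18 genes, 3 rose and 3 fell in TIG1A cells, beside 2.86% and 3.2% of all kept probe sets. After centring on array medians these became 7 and 1, and the calls over all 29977 kept probe sets became 1274 and 357. TLE1, a Groucho corepressor of TCF/LEF factors, read 1281, 1577 and 1494 in control, 2763, 3141 and 3178 in TIG1A and 1966, 2756 and 2725 in TIG1B cells on 203221_at. It rose in TIG1A by 1.06 (SE 0.18; limma, adjusted p = 0.0203) there and by 0.90 on 228284_at (adjusted p = 0.0452), whereas its other 3 kept probe sets gave -0.24 to 0.10. BCL9L, which links β-catenin to the Pygopus coactivators, read 672, 800 and 685 in control, 328, 271 and 212 in TIG1A and 480, 496 and 385 in TIG1B cells on 228065_at. On this probe set it fell in TIG1A by a log2 difference of -1.43 (SE 0.20, adjusted p = 0.0139), and both lines lay below control. Its other probe set, 227616_at, had no call.

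Of the other cofactors called in TIG1A cells, HIPK2, a kinase that phosphorylates TCF/LEF factors, rose by 0.72 on the log2 scale (limma, adjusted p = 0.0363). EP300, the histone acetyltransferase that β-catenin recruits, fell by 0.93 on 202221_s_at (limma, adjusted p = 0.0404). CTBP1, a corepressor, fell by 0.59 on 212863_x_at (adjusted p = 0.0495). The other probe sets of both genes had no call. EP300 also fell on 202221_s_at in TIG1B cells, by 1.07 (adjusted p = 0.0469). This was the only call of these lists in that line, beside 1.78% of all kept probe sets. After centring on array medians, EP300 and CTBP1 in TIG1A were no longer called (adjusted p = 0.0665 and 0.169). The EP300 call in TIG1B was lost there (adjusted p = 0.0766), after quantile normalization (0.0557) and without any single array (up to 0.144). HIPK2 read both ways, from -0.68 to 1.10, over its 9 kept probe sets.

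Among genes of β-catenin turnover, 48 kept probe sets of 19 genes, 1 rose and 1 fell in TIG1A cells, beside 2.86% and 3.2% of all. GSK3A, the paralogue of GSK3B, read 390, 308 and 496 in control, 110, 80.3 and 53.6 in TIG1A and 62.3, 174 and 157 in TIG1B cells on 202210_x_at. This was a log2 difference of -2.32 (SE 0.44; limma, adjusted p = 0.0284), and its second probe set gave -0.74 (adjusted p = 0.0515). CUL1, the cullin of the ubiquitin ligase that takes up phosphorylated β-catenin, rose by 0.66 (adjusted p = 0.0355) on 1 of 2 probe sets. No probe set was called among the 43 kept of ligand secretion, receptor and transducer genes, where 13 had an unadjusted p under 0.05 in TIG1A and 8 in TIG1B cells, beside 25% and 18.5% of all kept probe sets.

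The list of β-catenin target genes, which includes AXIN2 and TCF7 themselves, leaned the other way from AXIN2. Of its 36 kept probe sets of 17 genes, 25 had lower and 11 higher values in TIG1A than in control cells, with a median log2 difference of -0.45 beside -0.04 over all probe sets. Of the 11 with higher values, 4 were AXIN2 and 1 TCF7. These are counts of probe sets and not of genes, and on the array CD44 has more probe sets than any other gene of the list. The lower values were not counted by gene. In the list 1 probe set was called higher and 2 lower, beside 2.86% and 3.2% of all kept probe sets. Called lower were SOX9, a transcription factor of crypt progenitors, and SLC12A2, an ion cotransporter. SOX9 read 6566, 4931 and 5261 in control and 2541, 3435 and 2986 in TIG1A cells on 202936_s_at (log2 difference -0.90, limma, adjusted p = 0.0397). SLC12A2 read 1283, 2082 and 1982 in control and 1049, 954 and 901 in TIG1A cells on 204404_at (-0.85, adjusted p = 0.0486). Their other probe sets, 202935_s_at and 225835_at, had no call. After centring on array medians neither was called (adjusted p = 0.101 and 0.109), the calls of the list were 2 higher (AXIN2 and TCF7) and 0 lower, and its median was -0.29 beside 0.12. MYC (-0.41; adjusted p = 0.219) and both probe sets of CCND1 (-0.46 and -0.72; adjusted p = 0.282 and 0.0803) had lower values that did not pass the test. Each call of these lists in TIG1A cells was lost without Control replicate 2 and without TIG1A replicate 2. These were the only such arrays for BCL9L (adjusted p up to 0.0522), while 3 arrays ended the call of TLE1 203221_at (TIG1A replicate 3 besides), 5 that of GSK3A, 7 those of HIPK2 and CUL1 and 8 those of EP300, CTBP1, TLE1 228284_at, SOX9 and SLC12A2 (up to 0.144). In TIG1B cells the median of the target list was -0.07 beside -0.03, and it changed sign to 0.08 after centring.

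**Figure D5:**
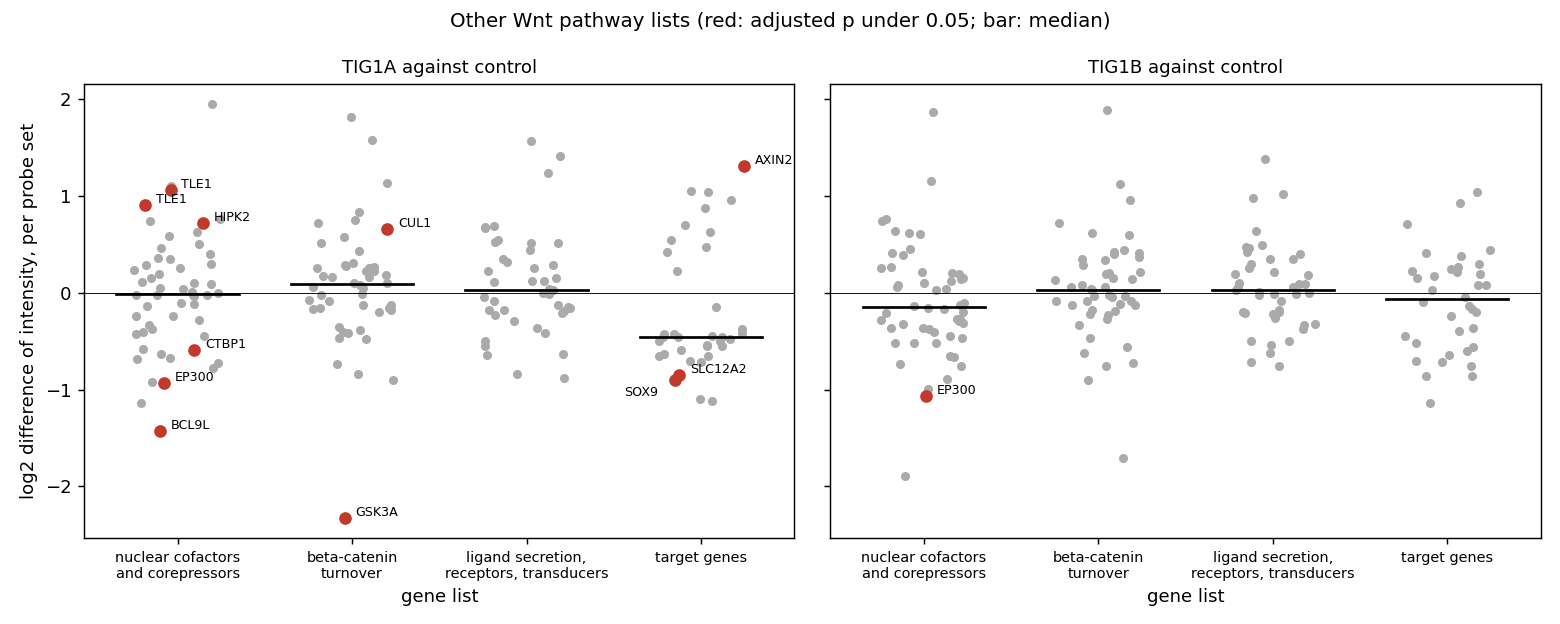
Log2 difference of intensity against control cells for each kept probe set (points) of 4 Wnt pathway lists, with TIG1A on the left and TIG1B on the right. Red points have an adjusted p under 0.05 and bars are medians of the lists. In TIG1A the target genes have a median of -0.45 with AXIN2 called at 1.31, and in TIG1B the only red point is EP300.

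Position in the genome was described from the 10 nearest measured genes on each side of a member. Around AXIN2 the median log2 difference of 20 neighbours was 0.08 in TIG1A cells, and 2 of them were called. It was 0.14 with 1 call around TCF7, 0.23 with 1 call around TCF7L1 and 0.08 with 0 calls around APC. Around CSNK1A1 it was -0.32 with 2 calls, the median farthest from 0 among the 10 members. This look at neighbours was chosen after the values of the members were seen.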

How the data were processed

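Total RNA of 9 HCT116 cultures was hybridised to Affymetrix HG-U133 Plus 2.0 arrays. The deposited intensity values were made by the authors with GCOS software and scaled globally to a common target, and each array's mean, trimmed by 2% at both ends, was checked to be 500.1. The labels and the Methods give MFP as 5 nM and the description of the series gives µM. Scanner files and Present calls were not used here.

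The 62 control probe sets were set aside, and the filter on the array median left 29977 of 54675 probe sets. Intensities under 1 were set to 1 and log2-transformed. limma 3.58.1 in R 4.3.3 fitted 1 mean per group over all 9 arrays, with Benjamini-Hochberg adjustment over all kept probe sets at 0.05, and was tested on simulated data. Symbols came from the platform annotation (41097 probe sets with 1 symbol, 1801 with several, 11777 with none), matched to GRCh38 by gene number for 41043. All member probe sets are named, together with called genes of the other lists and the 5 genes nearest to TCF7 and to AXIN2. A limit of 4 called genes per list and comparison was planned, and CTBP1 was named beyond it. Uncalled target genes named beside them, and neighbours, were chosen after their values were seen. Members and lists were chosen with earlier results of these data known. Suffixes _s_at and _x_at mark probe sets that can detect several transcripts or cross-hybridise. The number of arrays limits the precision.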

Additional observations from a re-analysis of the deposited data

How the results depend on the processing

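The AXIN2 difference in TIG1A cells kept its direction under every setting tried, at 1.10 to 1.52 on the log2 scale. The call on AXIN2 (adjusted p 0.0013 to 0.114) was lost without the filter, with the 6 arrays alone and in the methods' t-test after adjustment. It was also lost when Control replicate 2 or any TIG1A array was left out. The call on APC was lost in all of these settings, under the replicate block and whenever any other array was left out. The cause was not tested.

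In TIG1A against control the number of member calls was 5 with an offset of 50, 0 without the filter, 7 with a filter at the 75th percentile, 0 with the 6 arrays alone, 1 with a replicate block, 5 with trend and robust options and 0 in the methods' t-test after Benjamini-Hochberg, and over all probe sets 2745, 59, 3601, 166, 637, 3571 and 121 in the same order. TCF7 was called after median centring and, with TCF7L1 and AXIN2 224176_s_at, under the offset, the stricter filter and trend and robust options. Leaving out 1 array gave 0 to 2 member calls and 255 to 2799 calls in all.

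In TIG1B against control, member calls were 2 under the stricter filter (APC and GSK3B) and 1 with trend and robust options (TCF7L2), and 0 otherwise. Calls over all probe sets were 356 after median centring, 939 with the offset, 11 without the filter, 1794 under the stricter filter, 15 with the 6 arrays, 2 with the replicate block, 1563 with trend and robust options, 6 and 1092 in the methods' t-test with and without adjustment (the latter at a fold of 2), and 59 to 1041 without 1 array.

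In TIG1A against TIG1B, member calls were 1 with the offset, 2 under the stricter filter, 2 with trend and robust options, all of AXIN2, and 1 in the unadjusted t-test at a fold of 2. Over all probe sets there were 53 after median centring, 220 with the offset, 0 without the filter, 676 under the stricter filter, 2 with the 6 arrays, 0 with the replicate block, 598 with trend and robust options, 66 and 708 in the t-test with and without adjustment, and 0 to 153 without 1 array.

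Of the calls on other pathway genes and markers, those on BCL9L and TLE1 203221_at (adjusted p = 0.0366 for both) held under the replicate block. The replicate numbers of the titles are not known to pair the cultures. Correlations of deviations from group means ran from -0.037 to 0.19 between same-numbered arrays and from -0.126 to 0.0895 between the others. The highest was between TIG1A replicate 1 and TIG1B replicate 1. Whether the numbers mark pairs was not tested.

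Values near 0 changed sign. Median centring turned CSNK1A1 213860_x_at to 0.10 in TIG1A and 0.049 in TIG1B cells, and CTNNB1 201533_at to 0.11 in TIG1B cells. Without 1 array the differences of TIG1B against control ranged from -0.16 to 0.044 for CTNNB1 201533_at and from -0.065 to 0.15 for TCF7L1. Those of TIG1A against TIG1B ranged from -0.044 to 0.12 for APC 203525_s_at, from -0.42 to 0.36 for AXIN1 and from -0.061 to 0.16 for CSNK1A1 213860_x_at.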
